A study of Mus musculus with 46 samples.

Results

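Cochlear cells that carried the type 2 deiodinase transcript Dio2 were compared with cells that lacked it, among reporter cells that were low in a bone gene and in a macrophage gene. The deposited series holds 46 single cells, and the 23 compared here were chosen by their own expression values. Cells with Ibsp at 1000 CPM (counts per 1000000 reads) or more, which are of the bone-forming lineage (12 cells), and cells with C1qb at 500 CPM or more, which are macrophages (4 cells), were set aside. Of the 30 cells left, 15 had Dio2 at 10 CPM or more and are called Dio2-high, 8 had Dio2 under 1 CPM and are called Dio2-absent, and 7 lay between these limits and were left out.

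All cells came from the cochlea of C57BL/6 mice with the genotype Dio2creERt2:Ai6 at postnatal day 10, and no sample carried another genotype, treatment or age. The mice were heterozygous for an allele that places the tamoxifen-dependent recombinase CreERt2 under the control of Dio2, and Ai6 is a fluorescent reporter that Cre switches on permanently. When tamoxifen was given, and how the inserted allele changes the reads assigned to Dio2, is not in the labels. After papain digestion, single fluorescent cells were drawn into a pipette under a microscope, and their cDNA was made with SMART-Seq v4. A reporter of this kind marks a cell and its descendants once Cre has acted, so a fluorescent cell need not contain Dio2 RNA when it is collected. The labels name no animal for any cell, so the cells together count as 1 sample. No test, standard error or p-value was therefore made for any difference; each is described by its size, its spread over cells and the overlap of both sides.

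Dio2 encodes the selenoenzyme that converts the prohormone thyroxine (T4) into the active hormone triiodothyronine (T3) inside the cell. T4 and T3 enter through membrane transporters, T3 acts through the nuclear receptors encoded by Thra and Thrb, and the deiodinase protein is short-lived because it is ubiquitinated when substrate binds. The developing cochlea needs T3 before hearing begins, and its connective tissue, rather than its sensory epithelium, is known as the site of Dio2 expression. Fibrocytes of the lateral wall, which recycle potassium through gap junctions, and mesenchymal cells around the bony labyrinth belong to that tissue.

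Transcription of Dio2 is known to be induced by cyclic AMP, and the stretch upstream of its start is shown because the genes of that pathway are counted further on. The gene (NCBI Gene 13371) lies on the minus strand at chr12:90724552-90739038 of GRCm38.p6, and the 250 bases before the start annotated by RefSeq are chr12:90739039-90739288. The full cyclic AMP response element, TGACGTCA, which reads the same on both strands, is in capitals.
Dio2 upstream: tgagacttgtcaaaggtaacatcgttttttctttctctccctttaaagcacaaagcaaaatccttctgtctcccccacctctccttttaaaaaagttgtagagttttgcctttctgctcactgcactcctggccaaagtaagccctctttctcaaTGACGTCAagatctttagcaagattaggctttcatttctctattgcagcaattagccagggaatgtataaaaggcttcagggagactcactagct
The element occurred once, from 95 to 88 bases before the start. Of 32851 windows of the same length before the starts of mouse genes, 508 (1.55%) held it. A match of letters is a description of the sequence and not evidence of binding.

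Dio2 itself was used to choose the cells, so its values are only a description. In the Dio2-high cells it ranged from 13.1 to 599.8 CPM with a median of 133 CPM, and in the Dio2-absent cells from 0 to 0.816 CPM with a median of 0.302 CPM. The 2 highest cells, numbers 24 and 27 at 599.8 and 530.1 CPM, stood well above the next, cell 20 at 217 CPM. The cells nearest the upper limit were cell 25 at 7.41 CPM, left out, and cell 18 at 13.1 CPM, kept as Dio2-high. Nearest the lower limit were cell 19 at 0.816 CPM, kept as Dio2-absent, and cell 16 at 1.50 CPM, left out. The bone and macrophage limits fell in wide gaps: Ibsp was 106.7 CPM in the highest cell kept and 7618 CPM in the lowest cell set aside, and C1qb was 148 and 3048 CPM.

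**Figure D1:**
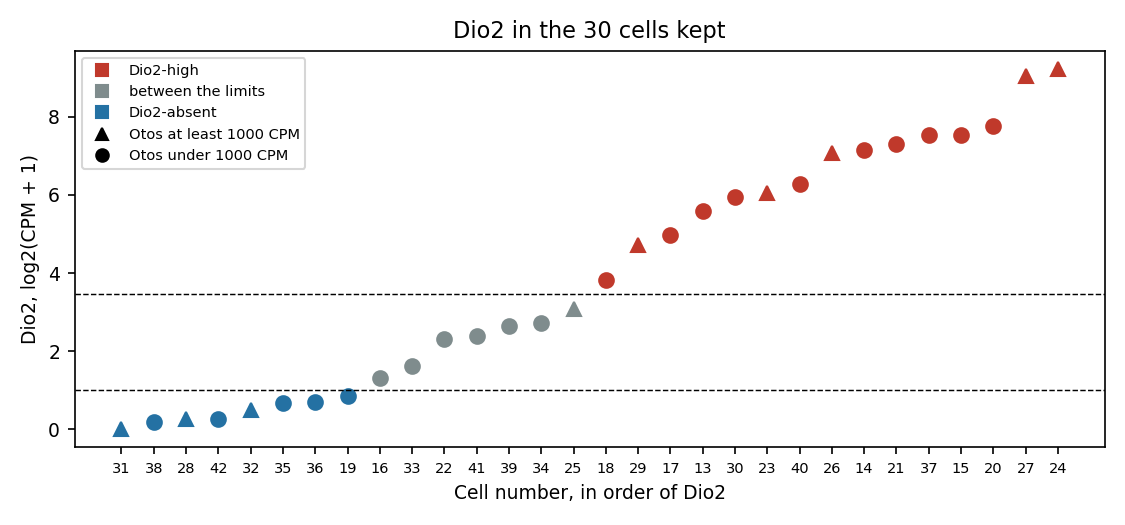
Dio2 level in log2(CPM + 1) of each of the 30 cells kept, ordered by Dio2 and labelled with the cell number; triangles are cells with Otos at 1000 CPM or more, circles the rest, and dashed lines the limits at 1 and 10 CPM. The Dio2-absent cells span 0 to 0.816 CPM and the Dio2-high cells 13.1 to 599.8 CPM.

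The sides were not evenly placed along the numbers the cells carry. Among cells 13 to 27, 11 were Dio2-high, 1 was Dio2-absent and 3 lay between; among cells 28 to 42, the counts were 4, 7 and 4. What the number stands for is not given in the sources used here, but the numbers ran with cell class. Cells 1 to 12 were those set aside by Ibsp, and cells 43 to 46 those set aside by C1qb. The kept cells with Otos at 1000 CPM or more all lay from 23 to 32. A range of numbers can therefore differ from another in its mix of cells. The part of the number in the differences below cannot be told apart from that of Dio2 in cells 13 to 27, which hold only 1 Dio2-absent cell. Values within cells 28 to 42 are given beside the leading genes and where they turn a direction or a balance of counts.

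The name of non-bone mesenchymal cells was checked against marker lists. Markers of broad mesenchyme were at 100 CPM or more for at least 3 genes in 12 of 15 Dio2-high and 8 of 8 Dio2-absent cells, and markers of cochlear fibrocytes in 14 of 15 and 6 of 8. Chondrocyte markers met the same level in 12 of 15 and 5 of 8 cells, with median summed levels of 15593 and 3823 CPM. General fibroblast markers did in 8 of 15 and 5 of 8. Most Dio2-high cells thus met the chondrocyte level as well. Pou3f4, a transcription factor of otic mesenchyme, was at 100 CPM or more in all 15 Dio2-high and in 6 of 8 Dio2-absent cells. The exceptions lay on both sides. Fewer than 3 broad mesenchyme markers reached 100 CPM in Dio2-high cells 18, 23 and 29. Fewer than 3 fibrocyte markers did in Dio2-high cell 21 and in Dio2-absent cells 38 and 42. Dio2-absent cells 38 and 42 held Slco1c1, a transporter gene of these cells, at 4.04 and 4.56 CPM and carried Smoc2, a matricellular gene, at 5437 and 648.7 CPM, while Smoc2 was under 1 CPM in the other 21 cells.

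At least 3 osteoblast markers reached 100 CPM in Dio2-high cells 20 and 21 and in Dio2-absent cell 42, although Ibsp was low there. Cell 20 had Sp7 at 704 CPM, Runx2 at 292 CPM and Dmp1 at 21980 CPM, so the low Ibsp level does not by itself keep the bone lineage out. Cell 24, the cell with the highest Dio2, held the melanocyte genes Dct and Tyr at 1904 and 192 CPM and S100b, a gene of glia and also of other cells, at 9379 CPM. At least 3 of 5 glia markers reached 100 CPM in 3 of 15 Dio2-high cells (24, 26 and 37) and in 0 of 8 Dio2-absent cells. The summed level of these markers ranged from 46.8 to 19367 CPM (median 1898) and from 13.1 to 9933 CPM (median 527). In the Otos-high class, defined below, all 5 measured were higher in Dio2-high cells, as were 40.5% of all genes measured there. No marker of macrophages, spiral ganglion neurons, hair cells or red blood cells reached 100 CPM in any cell of either side. Markers of endothelium, pericytes, cochlear epithelium and stria reached it in some cells of both sides, but at least 3 of 1 list in 0 cells. The summed level reached 780 CPM in Dio2-high and 715 CPM in Dio2-absent cells for endothelium, and 383 and 403 CPM for epithelium. The part of cells of other kinds in the differences was not tested.

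Otospiralin, Otos, a secreted protein of fibrocytes, was high in a like share of both sides: 5 of 15 Dio2-high and 3 of 8 Dio2-absent cells had it at 1000 CPM or more and are called Otos-high, the rest Otos-low. Values within each Otos class, and without cells 38 and 42 or the 3 cells with osteoblast markers, are given where they turn a direction or a balance of counts. Cells 38 and 42 were chosen after seeing the data, and leaving them out takes cells from the Dio2-absent side only. Their summed fibrocyte markers were 1405 and 133 CPM, while Dio2-high cells 21 and 40, at 331 and 903 CPM, were kept.

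The Dio2-high cells held more genes per cell at the median. At 1 CPM or more they had from 3351 to 7143 genes with a median of 5533, and the Dio2-absent cells from 3448 to 6556 with a median of 4422. The ranges overlapped almost fully, but the medians were 1111 genes apart, against a pooled SD over cells of 966 genes. The 7 cells between the Dio2 limits had a median of 4819 genes. Reads in the listed genes were also more numerous, from 3522422 to 10172279 with a median of 5569859 in Dio2-high cells and from 2921064 to 6822705 with a median of 4679906 in Dio2-absent cells. With each cell thinned to 2921064 reads, the reads of the shallowest of these cells, the difference was 1054.5 genes (medians 5468 and 4413.5). It was 1396 genes in the Otos-high class, 827.5 in the Otos-low class and 1496.5 within cells 28 to 42. Over all 46 cells, reads ranged from 2522853 to 10350249. The share of reads from mitochondrial genes had medians of 1.06% and 0.893%.

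**Figure D2:**
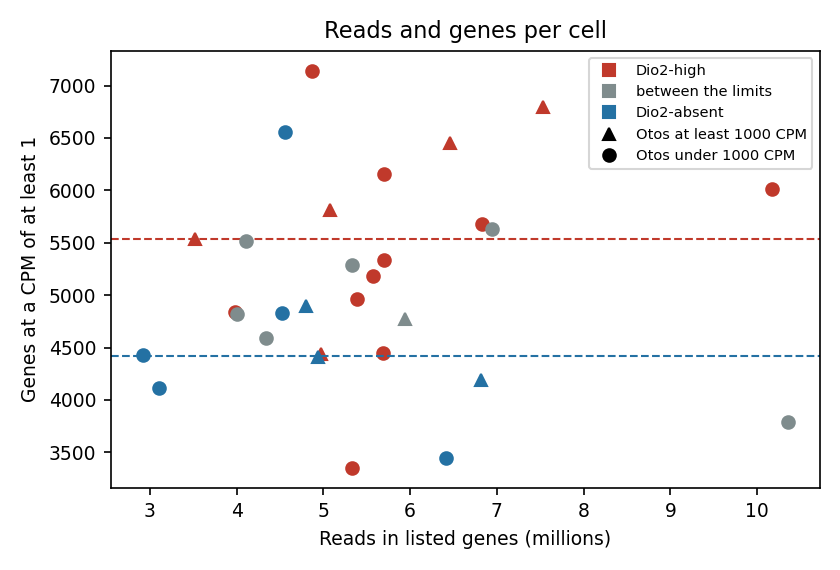
Genes at 1 CPM or more against reads in listed genes for each cell, coloured by Dio2 side, with triangles for Otos at 1000 CPM or more and dashed lines at the median genes of the Dio2-high (5533) and Dio2-absent (4422) cells. Both sides overlap in both measures, and 1 Dio2-absent cell, at 6556 genes, lies above the Dio2-high median.

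Over all genes the balance lay toward the Dio2-high side. Differences here are Dio2-high minus Dio2-absent, in means of log2(CPM + 1), a scale that understates the fold of low genes. A gene was counted when it differed by at least 2 and had at least 1 CPM in at least 50% of the cells of the higher side. Of 5442 genes with that share on at least one side, 629 (11.6%) were higher in Dio2-high cells and 206 (3.79%) were higher in Dio2-absent cells. Genes per cell differed in the same direction, and the part of that difference in the counts was not tested. For no gene other than Dio2 (0 of 5442 in either direction, 0%) did every cell of one side lie above every cell of the other. Without cells 38 and 42 the counts were 825 and 307, and without the 3 cells carrying osteoblast markers they were 840 and 211.

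The largest difference among the named genes was that of Ntn4, netrin-4, a secreted laminin-related protein of basement membranes. Ntn4 ranged from 0.372 to 6013 CPM with a median of 289 CPM in Dio2-high cells and from 0.542 to 1.47 CPM in Dio2-absent cells, with a median of 1.04 CPM. It was at 100 CPM or more in 9 of 15 Dio2-high and 0 of 8 Dio2-absent cells, while the 5 lowest Dio2-high cells, at 0.372 to 1.02 CPM, were no higher than the Dio2-absent side. The difference was 5.50 (SD over cells 4.62 and 0.26). It was 7.21 among Otos-low cells, 2.03 among Otos-high cells and 5.88 within cells 28 to 42. The 2 cells with the most Dio2, cells 24 and 27, had Ntn4 at 0.869 and 0.372 CPM.

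Lect1, which encodes the cartilage glycoprotein chondromodulin, followed another pattern. It was at 100 CPM or more in 11 of 15 Dio2-high cells (2.89 to 7031 CPM, median 2538) and in 2 of 8 Dio2-absent cells (3.06 to 8028 CPM, median 6.01). The highest cell of all was a Dio2-absent cell. Its difference was 4.56, and 1.91 within cells 28 to 42.

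The other genes named for the size of their difference on this side were found in most Dio2-high cells and in few Dio2-absent cells. That pattern is largely set by how they were chosen and is no separate result. The counting rule asked for a minimum share of Dio2-high cells with the gene. Ranking by the difference then favoured genes that were low in Dio2-absent cells. Mfsd14b, of the major facilitator family, ranged from 0 to 482.7 CPM (median 142) on the Dio2-high side and from 0 to 39.5 CPM (median 0.199) on the Dio2-absent side. It was at 1 CPM or more in 13 of 15 and 1 of 8 cells, a difference of 5.15. Ppm1m, a protein phosphatase gene, ranged from 0.162 to 465.6 CPM (median 88.9) against 0 to 10.6 CPM (median 0.522). It was higher in the Dio2-high cell in 90.8% of the pairs of 1 Dio2-high and 1 Dio2-absent cell, with a difference of 4.71.

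Zmym2, a zinc finger gene, had no read in any of the 8 Dio2-absent cells and ranged up to 209 CPM on the Dio2-high side, where 10 of 15 cells had at least 1 CPM. Cir1, a corepressor gene, had the highest share of pairs of the genes named on this side, 92.1%, with a difference of 2.53. Named for size as well were Lrrc41 (4.79), Tcp11l2 (4.74), Gadd45b (4.65), Vamp4 (4.61), Cnot2 (4.51), Tfdp1 (4.48), Rad54l (4.31) and Nfe2l2 (4.29). They include the stress-induced gene Gadd45b, the trans-Golgi SNARE Vamp4, the deadenylase subunit Cnot2, the E2F partner Tfdp1, the recombination gene Rad54l and the oxidative stress regulator Nfe2l2.

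On the Dio2-absent side, Ptpmt1, a mitochondrial phosphatase needed to make cardiolipin, was found in every cell. Ptpmt1 ranged in the 8 Dio2-absent cells from 35.6 to 285 CPM with a median of 131 CPM, and in the Dio2-high cells from 0 to 110.0 CPM with a median of 9.71 CPM. The ranges overlapped, and the gene was higher in the Dio2-high cell in 6.67% of pairs. Its difference was -3.44 (SD over cells 2.56 and 0.94), -3.17 and -3.64 in Otos-high and Otos-low cells and -3.80 within cells 28 to 42.

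Clmp, an adhesion molecule gene, had the largest difference of the genes named in this direction, -4.10. It ranged from 16.2 to 540.5 CPM (median 235) in the Dio2-absent cells and from 0 to 975.5 CPM (median 0.800) in the Dio2-high cells. All 8 Dio2-absent cells held it at 1 CPM or more, as did 7 of 15 Dio2-high cells, and the highest level of all was in a Dio2-high cell. Tmem131 was higher in the Dio2-high cell in 5.83% of pairs, the lowest share of the genes named. It was at 1 CPM or more in 1 of 15 and 5 of 8 cells.

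Pkd2, the calcium-permeable channel polycystin-2, differed by -4.01, and Tet1, which oxidises methylated cytosine, by -3.90. Sdc4, the cell surface proteoglycan syndecan-4, was at a median of 1.04 CPM in Dio2-high and 419.5 CPM in Dio2-absent cells, a difference of -3.54. Mylip, a ubiquitin ligase of the LDL receptor, differed by -3.62 and Tardbp, an RNA-binding protein gene, by -3.55. Lman2l, a cargo receptor of the secretory pathway, was between 97.8 and 657.3 CPM in the Dio2-absent cells and between 0.170 and 319 CPM in the Dio2-high cells, a difference of -3.27.

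The pathway that Dio2 serves was counted next. A listed gene was called measured when it was at 1 CPM or more in at least 20% of the cells of either side, and was counted when it differed by 1 or more. Of all 10448 genes measured, 2996 (28.7%) were then higher in Dio2-high cells, 1287 (12.3%) were higher in Dio2-absent cells, and the median difference was 0.36. Every list below should be read against the shares of all genes measured in the same cells. Higher in Dio2-high and in Dio2-absent cells were 40.46% and 20.07% in the Otos-high class and 29.03% and 20.03% in the Otos-low class. Within cells 28 to 42 the shares were 41.93% and 14.01%. They were 33.21% and 13.63% without cells 38 and 42, and 34.61% and 12.25% without the cells with osteoblast markers.

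Transport, binding and deiodination genes other than Dio2 were divided, with 2 of 7 measured higher in Dio2-high cells, 2 higher in Dio2-absent cells and a median difference of 0.64. Without cells 38 and 42 the counts were 1 and 2 of 7, and in the Otos-high class they were 1 and 1 of 6 with a median of -0.18. They were 3 and 1 of 8 in the Otos-low class and 3 and 2 of 5 within cells 28 to 42. Slco1c1, which carries T4, was high in nearly every cell of both sides, from 544 to 2900 CPM (median 1385) in Dio2-high and from 4.04 to 4171 CPM (median 1274) in Dio2-absent cells. All 15 Dio2-high cells and 6 of 8 Dio2-absent cells were at 100 CPM or more. The difference of 1.71 came with a pair share of 54.2%, and cells 38 and 42 were the 2 low ones. Slco1a4, an organic anion transporter that also takes up thyroid hormone, ranged from 29.8 to 1573 CPM (median 479) against 0.881 to 709 CPM (median 328). Its difference was 2.72 over all cells, 1.16 without cells 38 and 42, and -0.058 within the Otos-high class.

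Slc7a8, an amino acid transporter that also carries T3, was found in some cells of each side and nearly missing in others. It was at 100 CPM or more in 5 of 15 Dio2-high cells (0 to 230.0 CPM, median 0.323) and in 4 of 8 Dio2-absent cells (0.198 to 216 CPM, median 113), a difference of -1.69. The difference of Crym, which binds T3 in the cytoplasm, was -1.97. Slc3a2, the heavy chain shared by the amino acid transporters, differed by 0.64. Slc16a10, Slco1a5 and Slc7a5 were at 1 CPM or more in at most 5 of the 23 cells. Dio1 and Dio3, which encode the other deiodinases, and Slc17a4 and Ttr were under 1 CPM in every cell of both sides. Dio3 reached 95.9 CPM in cell 16, which lay between the Dio2 limits.

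**Figure D3:**
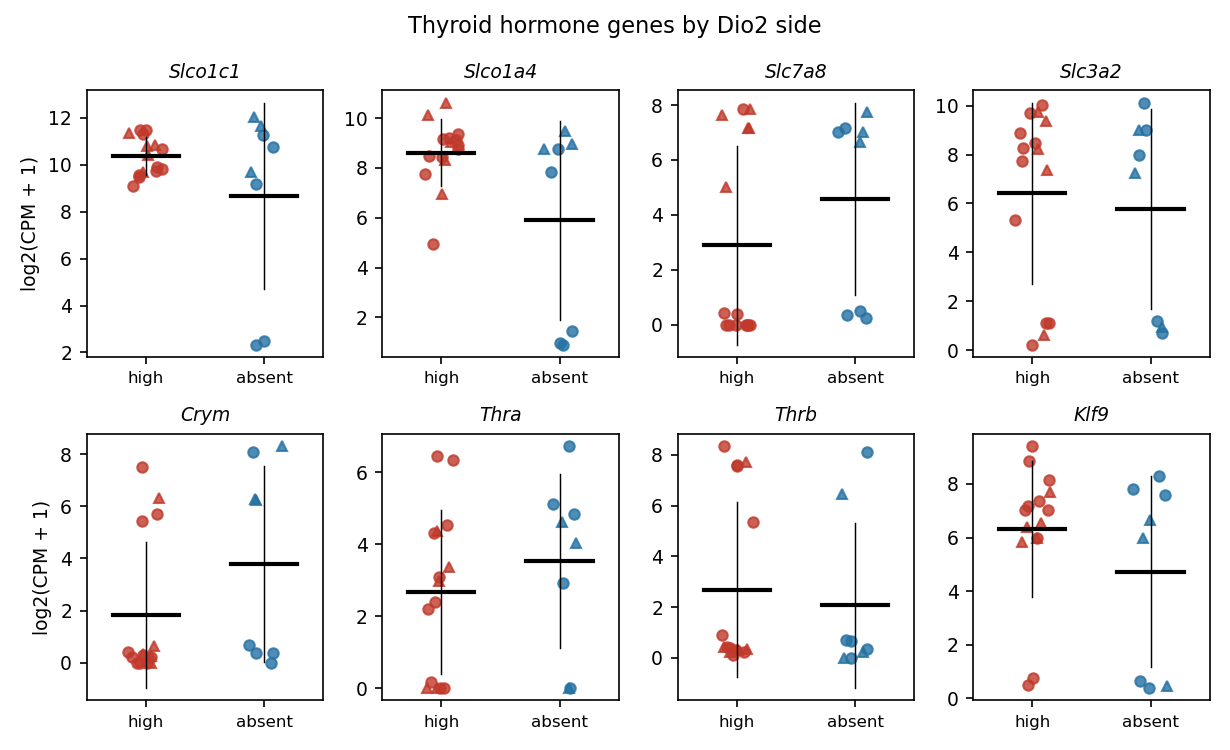
Level in log2(CPM + 1) per cell of 5 thyroid hormone transport and binding genes, the receptor genes Thra and Thrb and the T3-responsive gene Klf9 in Dio2-high and Dio2-absent cells, with bars for the mean, thin lines for ± SD over cells and triangles for Otos at 1000 CPM or more. All 15 Dio2-high cells lie at 544 CPM or more for Slco1c1, and cells 38 and 42 are the 2 low cells of the Dio2-absent side.

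Receptors and their cofactors showed few differences over all cells, with 2 of 10 measured higher in Dio2-high cells, 0 higher in Dio2-absent cells and a median of 0.31. In the Otos-high class the counts were 2 and 2 of 9 with a median of -0.41. They were 5 and 1 of 10 in the Otos-low class, with a median of 0.72. Within cells 28 to 42 they were 5 and 2 of 10 with a median of 0.75. Thra ranged from 0 to 86.7 CPM (median 6.81) in Dio2-high cells and from 0 to 105 CPM (median 19.4) in Dio2-absent cells, a difference of -0.85. Thrb was at 1 CPM or more in 5 of 15 and 2 of 8 cells and differed by 0.62. The members counted over all cells were the coactivator Ncoa3 (2.28) and the corepressor deacetylase Hdac3 (1.81).

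Among genes known to respond to T3 in other tissues, 6 of 13 measured were higher in Dio2-high cells and 1 was higher in Dio2-absent cells, with a median of 0.57. Without cells 38 and 42 the counts were 4 and 2 of 12. Klf9, a transcription factor gene with a T3 response element, was at a median of 128 CPM (0.402 to 679) in Dio2-high and 81.2 CPM (0.305 to 311) in Dio2-absent cells. It differed by 1.59, less than the SD over cells on either side (2.53 and 3.57). Itih3 had no read in any Dio2-absent cell and was at 1 CPM or more in 5 of 15 Dio2-high cells, with a highest value of 843 CPM. Aldh1a1, a retinaldehyde dehydrogenase gene, differed by 2.27, Slc2a1 by 1.57 and Nov by -1.36.

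Genes for turnover of the deiodinase protein and for building selenoproteins included members on both sides. In the turnover list 5 of 11 measured were higher in Dio2-high cells, 2 were higher in Dio2-absent cells and the median was 0.42. Within cells 28 to 42 the counts were 3 and 3 of 12. Ube2j1 (3.38) and Ube2j2 (2.23), ubiquitin-conjugating enzymes of the endoplasmic reticulum, and Usp33 (2.11), which removes ubiquitin from the deiodinase, were higher in Dio2-high cells. Cul5, a ubiquitin ligase scaffold, differed by -2.07 and Ube2g2 by -1.58, while the ligase genes Wsb1 and March6 differed by -0.32 and 0.42. Of 18 selenoprotein genes measured, 3 were higher on each side, with a median of 0.18. In the Otos-high class the counts were 8 and 1 of 20, or 40% and 5%. Of all genes measured there, 40.5% and 20.1% were. Txnrd1 (2.85), a thioredoxin reductase, and Sephs1 (2.69) were higher in Dio2-high cells, and Secisbp2 (-2.27), which binds the insertion element that directs selenocysteine into the deiodinases, was higher in Dio2-absent cells.

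Cyclic AMP genes, whose response element was shown upstream of Dio2, had 7 of 21 measured higher in Dio2-high cells and 1 higher in Dio2-absent cells, with a median of -0.00. Prkacb (2.41), a catalytic subunit of protein kinase A, and Pth1r (2.31), a receptor that raises cyclic AMP, were higher over all cells, but within the Otos-high class their differences were -0.40 and -1.25. Ptger4, a prostaglandin receptor, was at 1 CPM or more in 11 of 15 and 1 of 8 cells, a difference of 1.90. The phosphodiesterase Pde4b differed by -1.91. In the Otos-high class 5 of 25 genes measured were higher in Dio2-high cells and 11 were higher in Dio2-absent cells; in the Otos-low class 11 and 3 of 25 were.

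Immediate early genes, which dissociation of tissue is known to induce, were higher in Dio2-high cells for 8 of 17 measured and lower for 2, with a median of 0.86, and the part of handling was not tested. Jun ranged from 1.76 to 7893 CPM (median 77.4) in Dio2-high cells and from 2.30 to 609.8 CPM (median 3.91) in Dio2-absent cells, a difference of 3.60. A single Dio2-absent cell, number 35, was above 6 CPM. Zfp36, which promotes decay of mRNA, differed by -2.10 and Dusp1 by -1.94. Of 17 genes of the unfolded protein response, 5 were higher in Dio2-high cells and 0 in Dio2-absent cells, with a median of 0.60. Hspa5, the main chaperone of the endoplasmic reticulum, was at a median of 1027 CPM against 568.5 CPM, a difference of 1.38.

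Of 23 collagen chains measured, 9 were higher in Dio2-high cells and 4 in Dio2-absent cells, with a median of -0.05; without cells 38 and 42 the counts were 8 and 1 of 22 with a median of 0.62. Col2a1, the chain of cartilage collagen, ranged from 16.5 to 21230 CPM (median 6259) in Dio2-high cells and from 15.3 to 4939 CPM (median 555) in Dio2-absent cells. It was higher in the Dio2-high cell in 79.2% of pairs, with a difference of 3.05, which was 1.16 in the Otos-high class and 4.22 in the Otos-low class. Col24a1 (2.78), Col8a1 (2.33), Col11a2 (2.21), Col9a3 (2.09), Col9a1 (1.89) and Col11a1 (1.29) were higher as well, but Col8a1 was -2.47 in the Otos-high class and Col11a2 was -1.27 within cells 28 to 42. Within cells 28 to 42, 3 of 24 collagen chains measured were higher in Dio2-high cells and 10 in Dio2-absent cells, so the balance of this list lay the other way. The chains higher in Dio2-absent cells over all cells were Col6a3 (-2.16), Col15a1 (-1.76), Col1a1 (-1.17) and Col8a2 (-1.08).

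Small leucine-rich proteoglycans, which bind collagen fibrils, were split evenly, with 5 of 11 measured higher on each side and a median of 0.84. The median turned to -1.20 in the Otos-high class (4 and 6 of 11), -0.72 in the Otos-low class (5 and 5 of 12) and -0.31 within cells 28 to 42 (4 and 4 of 11), while without the cells with osteoblast markers it was 1.71 (6 and 1 of 10). Omd, osteomodulin, was at a median of 318 CPM in Dio2-high cells (0.323 to 3950) and 29.8 CPM in Dio2-absent cells (0.881 to 475), a difference of 2.99. Chad, chondroadherin, was at 100 CPM or more in 6 of 15 and 1 of 8 cells and differed by 2.95. Lum, lumican, was at a median of 63.7 CPM in Dio2-high and 480.4 CPM in Dio2-absent cells, a difference of -2.11. Aspn (-1.97), Epyc (-1.85) and Dcn (-1.43) were on the same side as lumican.

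Of 30 other matrix genes measured, 8 were higher in Dio2-high cells, Ntn4 among them, and 5 in Dio2-absent cells, with a median of 0.51. In the Otos-high class the counts were 8 and 10 of 28 with a median of -0.14, and without cells 38 and 42 they were 14 and 3 of 27 with a median of 1.19. Within cells 28 to 42 they were 10 and 7 of 29 with a median of -0.17. Smoc1 differed by 2.78 but by -1.26 in the Otos-high class. Fn1, fibronectin, was at most 4.20 CPM in the Dio2-high cells and was at 100 CPM or more in 3 of 8 Dio2-absent cells, numbers 38, 36 and 42 at 518.5, 263 and 175 CPM. Its difference was -2.79 over all cells and 0.015 in the Otos-high class. Of 5 general fibroblast markers measured, 4 were higher in Dio2-absent cells and 0 in Dio2-high cells, with a median of -1.43, and without cells 38 and 42 the count was 3 of 5 with a median of -1.10. Without the cells with osteoblast markers 1 of 5 was, with a median of -0.87, and in the Otos-high class 2 of 5 were and 1 was higher in Dio2-high cells, with a median of 0.14. In the Otos-low class 6 of 6 fibroblast markers measured were higher in Dio2-absent cells, with a median of -1.71. Within cells 28 to 42 all 5 measured were, with a median of -3.23. Chondrocyte markers had 3 of 5 higher in Dio2-high cells and 1 higher in Dio2-absent cells, with a median of 1.89 and, without cells 38 and 42, of 0.86 over 4 markers. Within cells 28 to 42 the counts were 2 and 1 of 5 with a median of 0.13, against 0.70 over all genes there.

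Fibrocyte markers did not follow Dio2 in one direction. Over all cells, 5 of 9 were higher in Dio2-high cells and 2 in Dio2-absent cells, with a median of 1.17. Without cells 38 and 42, an omission from the Dio2-absent side only, the counts were 0 and 4 with a median of -0.58. Without the cells with osteoblast markers they were 3 and 3 with a median of 0.51. In the Otos-high class they were 2 and 4 with a median of -0.76. The gap junction genes Gjb6 and Gjb2 differed by -2.25 and -1.95. Gjb6 was at a median of 96.7 CPM in Dio2-high cells (0.854 to 4098) and 1228 CPM in Dio2-absent cells (1.19 to 3208); its difference was 0.70 in the Otos-high class and 0.05 within cells 28 to 42. Otos itself differed by 0.04. Car2, a carbonic anhydrase gene, was at 100 CPM or more in 11 of 15 and 3 of 8 cells, a difference of 3.34. Of 17 ion transport and gap junction genes measured, 4 were higher in Dio2-high cells and 3 in Dio2-absent cells, with a median of -0.40. The balance turned to 4 and 6 of 17 without cells 38 and 42, 4 and 6 of 16 without the cells with osteoblast markers, 4 and 8 of 18 in the Otos-high class and 2 and 4 of 17 within cells 28 to 42.

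Among transcription factors of otic mesenchyme, 8 of 27 measured were higher in Dio2-high cells and 5 in Dio2-absent cells, with a median of 0.29. The counts were 12 and 6 of 24 in the Otos-high class, with a median of 0.96, but 8 and 10 of 28 in the Otos-low class, with a median of -0.32. Twist1, a regulator of mesenchymal identity, ranged from 0.180 to 124 CPM (median 70.5) in Dio2-high cells and from 0 to 211 CPM (median 0.288) in Dio2-absent cells. It was at 1 CPM or more in 12 of 15 and 1 of 8 cells, and that 1 cell, number 19, had the highest level of all. The difference was 3.62, and it was 4.23, 3.23 and 2.94 in Otos-high cells, Otos-low cells and cells 28 to 42. Tbx1 (2.57) was higher in Dio2-high cells, and Nfib (-2.66) and Msx1 (-1.81) were higher in Dio2-absent cells.

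**Figure D4:**
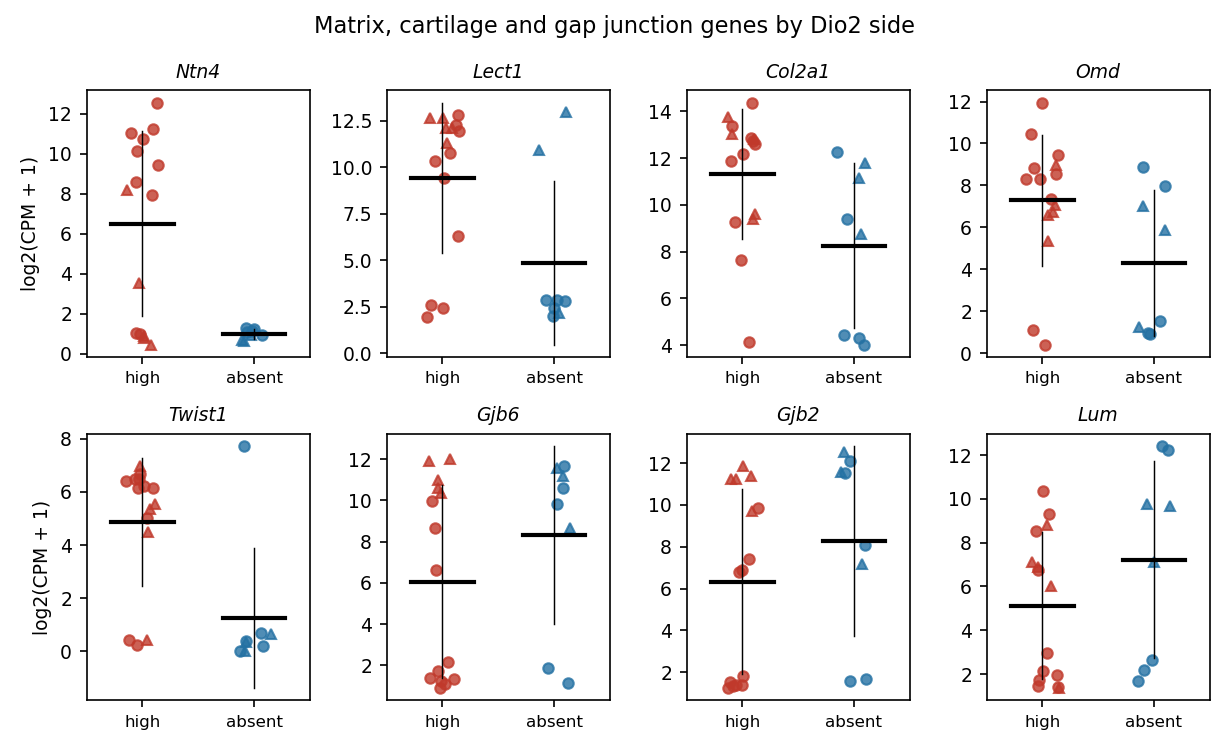
Level in log2(CPM + 1) per cell of Ntn4, Lect1, Col2a1, Omd, Twist1, Gjb6, Gjb2 and Lum in Dio2-high and Dio2-absent cells, with bars for the mean, thin lines for ± SD over cells and triangles for Otos at 1000 CPM or more. Most of these genes are high in some cells and low in others on each side, as Lect1 is with 11 of 15 and 2 of 8 cells at 100 CPM or more; Ntn4 is low in all 8 Dio2-absent cells.

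Signalling lists had members on both sides. In the BMP and TGF-beta list 5 of 27 measured were higher on each side, with Tgfb2 (2.20) and Id2 (2.19) on the Dio2-high side and Bmp7 (-1.86) on the other. Id2 was -0.62 in the Otos-high class. The counts of this list were 8 and 4 of 26 without cells 38 and 42 and 10 and 6 of 25 within cells 28 to 42. They were 10 and 8 of 23 in the Otos-high class and 8 and 8 of 28 in the Otos-low class. Without the cells with osteoblast markers they were 5 and 6 of 23. The Wnt list had 6 and 3 of 20, the IGF list 2 and 4 of 13, and the hedgehog and FGF list 4 and 2 of 15, including the hedgehog signal transducer Smo (2.39, but -0.29 in the Otos-high class). In the Otos-low class the hedgehog and FGF counts turned to 3 and 5 of 14. Within cells 28 to 42 the Wnt counts were 6 and 6 of 20 and the IGF counts 4 and 4 of 13. In the Otos-high class the IGF counts were 4 and 3 of 12. The retinoid and steroid list had 5 and 6 of 13, and 3 and 3 of 10 without cells 38 and 42. It had 7 and 6 of 17 in the Otos-low class, 5 and 4 of 11 in the Otos-high class and 3 and 2 of 14 within cells 28 to 42. Of 13 genes of mineral control, 3 were higher in Dio2-high cells, among them Enpp1 (2.66), which makes pyrophosphate, and Phex (2.06), and 1 was higher in Dio2-absent cells; within cells 28 to 42 the counts were 3 and 4 of 14. Of 8 inner ear secreted protein genes, 2 were higher in Dio2-high cells and 1 in Dio2-absent cells, with a median of 0.26. Without cells 38 and 42 the counts turned to 0 and 4 of 8 with a median of -0.89, and in the Otos-high class to 2 and 5 of 9 with a median of -1.04. Within cells 28 to 42 they were 2 and 2 of 8 with a median of -0.19. Among 8 cell cycle genes the counts were 1 and 0 (1 and 2 of 9 in the Otos-low class), and among 10 widely used genes 2 and 0 with a median of 0.29.

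The Otos classes hold no cell in common, so the same contrast could be set side by side in each. With 5 against 3 Otos-high cells, 1616 genes (26.2% of 6174) were higher in Dio2-high cells and 730 (11.8%) in Dio2-absent cells; with 10 against 5 Otos-low cells, 1030 (17.9% of 5759) and 520 (9.03%) were. The classes shared 212 of the genes higher in Dio2-high cells, which is 13.1% of the Otos-high list and 20.6% of the Otos-low list, and 97 genes of the Otos-high list were counted in the opposite direction in the Otos-low class. Among genes higher in Dio2-absent cells, 34 were shared (4.66% and 6.54%) and 108 were opposite. Among the 4598 genes tested in both classes, 19.6% of the Otos-high calls for Dio2-high cells were shared, where 17.6% of all 4598 were called that way in the Otos-low class. For Dio2-absent cells the values were 7.98% and 6.66%. All 15 genes named for size or pair share on the Dio2-high side differed by 2 or more in both classes, as did 14 of 17 on the Dio2-absent side, which is no independent support because they were chosen on the same cells.

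**Figure D5:**
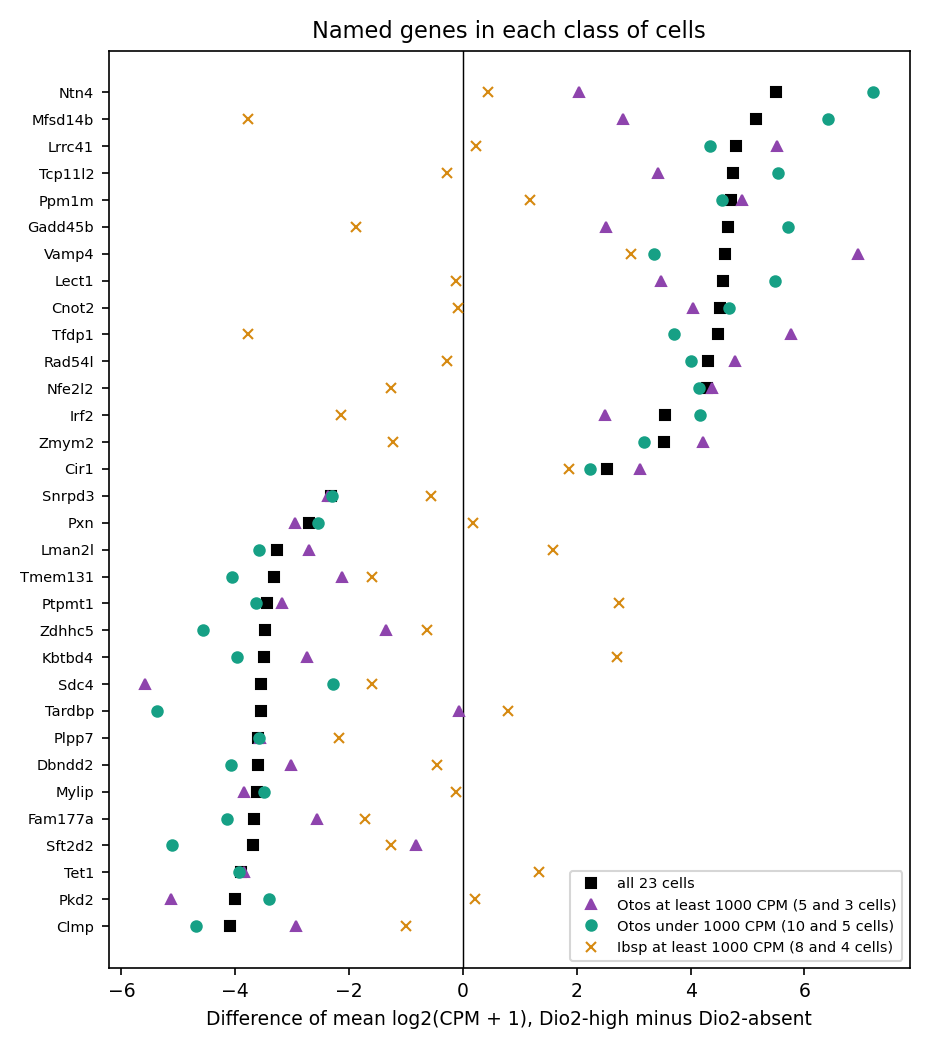
Difference in mean log2(CPM + 1), Dio2-high minus Dio2-absent, of the genes named for size or pair share over all 23 cells (squares), in Otos-high cells (triangles), in Otos-low cells (circles) and in the bone lineage cells set aside by Ibsp (crosses). Each gene has the same sign in both Otos classes, on which the genes were chosen, while the bone lineage differences lie on both sides of 0, with Ntn4 at 0.44.

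The 12 cells set aside by Ibsp offer values that did not enter the choice of genes. Of these, 8 had Dio2 at 10 CPM or more and 4 under 1 CPM. The balance lay the other way there, with 587 genes (7.82% of 7504) higher in Dio2-high cells and 1414 (18.8%) higher in Dio2-absent cells. Genes per cell at 1 CPM or more lay the other way too, from 4282 to 6671 with a median of 4891 in the 8 Dio2-high cells and from 4798 to 6894 with a median of 6127 in the 4 Dio2-absent cells. In all, 33 of the 629 genes higher in non-bone Dio2-high cells were counted the same way in the bone lineage (5.25%, or 5.62% of the bone list), and 101 were counted the opposite way. In the other direction, 33 of 206 were shared (16.02%, or 2.33% of the bone list) and 20 were opposite. Among the 4796 genes tested in both, 6.18% of the non-bone calls for Dio2-high cells were shared, where 7.51% of all 4796 were called that way in bone lineage cells. For Dio2-absent cells 33 of 150 calls were shared (22%), where 14.8% of all 4796 were called that way. Over all genes measured in bone lineage cells the median difference was -0.32. By 1 or more, 19.3% were higher in Dio2-high cells and 31.7% in Dio2-absent cells. The signs of the named genes should be read against these values. Of the 15 genes named on the Dio2-high side, 5 had the same sign in bone lineage cells and 1, Vamp4 at 2.96, differed by 2 or more, while Mfsd14b and Tfdp1, both at -3.78, and Irf2 at -2.14 differed by as much in the opposite direction. Of the 17 named on the Dio2-absent side, 10 had the same sign and 1, Plpp7 at -2.18, differed by 2 or more, while Ptpmt1 (2.75) and Kbtbd4 differed by as much in the opposite direction.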

How the data were processed

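RNA of 46 hand-picked single cells was measured, and the authors deposited 1 table of CPM values for 29871 genes. The tools named in the submitters' processing notes are bcl2fastq 2 and the aligner STAR 2.7.3a, and the build is GRCm38 (mm10); the counting program is not given in the sources used here. Every value above 0 was a whole number of reads within 0.01 read (100%), 1 read being worth 0.087 to 0.347 CPM, so reads per cell were recovered. Reads carry no molecular identifiers, so they are not independent molecules. Symbols in the lists (528) were matched by symbol (524) or identifier (4); 25 symbols had been turned into dates. Levels are log2(CPM + 1). Genes were named by size (12 per direction), by share of cell pairs (8 per direction, ties as 0.5), as thyroid, receptor and turnover members, as up to 4 members of each other list, and as cell type markers; Dio2, predicted, mitochondrial and ribosomal genes were left out. The members and lists were chosen with earlier results of these data known; some list members are not reported here, and the lists were counted without them. No cell is tied to an animal, so a count test of the recovered reads was not run, and replicate error could not be set beside any difference. Alternatives were pseudocounts, medians, a stricter filter, no filter, size factors, thinning, other Dio2 and Ibsp limits, Otos classes and leaving out each cell. The script was tested on simulated data. Python 3.11.15, numpy 2.4.6, pandas 2.3.3, scipy 1.17.1 and matplotlib 3.10.9 were used. The Dio2 upstream sequence is from RefSeq on GRCm38.p6.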

Additional observations from a re-analysis of the deposited data

Results flagged for a closer look

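Values of the 8 Dio2-absent cells were examined for a single cell set apart from the other 7 by a gap above Dixon's 95% critical value. Of 60 values examined, 22 had such a cell. Chance gives about 1 in 20 for normally distributed values, which does not apply here: many of these genes were named for being near 0 in most Dio2-absent cells, so that 1 cell with the gene stands apart, and no excess over chance is read from the number. Cell 42 was the highest for genes per cell (6556) and for Lrrc41 (40.2 CPM), Vamp4 (74.1 CPM), Tfdp1 (307 CPM), Rad54l (18.4 CPM), Slc7a5 (85.4 CPM) and Usp33 (126 CPM), and the lowest for Pkd2 (7.73 CPM). Cell 31 was the highest for Mfsd14b (39.5 CPM), Tcp11l2 (163 CPM), Irf2 (20.4 CPM) and Ube2j2 (70.9 CPM), and the lowest for Dbndd2 (0 CPM) and Vcp (1.29 CPM). Cell 35 was the highest for Cnot2 (17.6 CPM) and the lowest for Sft2d2 (0.294 CPM), Fam177a (0.294 CPM) and Stub1 (1.47 CPM). Cell 38 was the lowest for Zdhhc5 (0.433 CPM) and Snrpd3 (0 CPM). Cell 19 was the highest for Nfe2l2 (218 CPM), and cell 32 for Slco1a5 (301 CPM).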

How the results depend on the processing

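Counts of genes higher in Dio2-high and in Dio2-absent cells were 629 and 206. They were 1132 and 432 with a pseudocount of 0.1, 56 and 19 with one of 10, 1606 and 589 with medians, and 202 and 87 with 10 CPM required in 75% of cells. With Dio2-high set at 100 CPM the first was 1043, and with Dio2-absent set under 0.5 CPM the second was 410. In Otos-high cells they were 1616 and 730, in Otos-low cells 1030 and 520, and within cells 28 to 42, a range chosen after seeing the data, the first was 2043. Leaving out each cell in turn gave 628 to 811 and 174 to 254, and 1012 to 1186.5 for the difference in genes per cell. Median-ratio size factors gave 462 and 195, and the median over all measured genes was then 0.25 in place of 0.36. In Otos-high cells these differences reversed: Slco1a4 (-0.058), Secisbp2 (1.36), Prkacb (-0.40), Pth1r (-1.25), Sdf2l1 (-1.76), Gjb6 (0.70), Col8a1 (-2.47), Fn1 (0.015), Smoc1 (-1.26), Id2 (-0.62) and Smo (-0.29). Within cells 28 to 42, Gjb6 (0.047) and Col11a2 (-1.27) did. The causes were not tested. Of 66 named genes counted, 12 reversed under some setting, 0 of them on leaving out 1 cell; 18 fell under 2 on leaving out 1 cell, including Snrpd3 (-1.88 without cell 35). The runs without cells 38 and 42 and within cells 28 to 42 were added after seeing the data. No paired analysis was possible because the cells form 1 group in the labels.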
